A study of Homo sapiens with 6 samples.

Results

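The ZNF genes are the human genes named "zinc finger protein" with a number, and 106 of them were expressed in HGC-27 cells. They are the protein-coding genes whose symbol is ZNF followed by a number, with or without a letter, selected on the measured mean over the 6 libraries, which had to be at least 1 FPKM (fragments per kilobase of gene model, relative to all mapped fragments of the library). The deposited table holds 508 such ZNF genes among 62443 genes in all, and 7406 genes of every kind passed the same minimum. Of the ZNF genes that did not pass, 42 were at 0 in all libraries and 360 lay above 0 and below the minimum.

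HGC-27 is an established human gastric cancer cell line. In 3 Con libraries the cells carry no treatment by the labels, while by the study's methods they received the stock buffer alone, and in 3 GLUP libraries the cells received GLUP, a cyclic peptide derived from the VGLL4 protein and designed as a glue for the transcription factor TEAD4. The exposure time differs between the study's results and its methods, and is therefore not given. All 6 libraries come from 1 cell line, the labels do not say that they came from separate cultures, and p-values measure only the spread between these libraries, which may be technical. The comparison asks how the expressed ZNF genes differ between GLUP and Con, and whether they differ otherwise than genes of similar base composition.

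Most ZNF proteins bind DNA through tandem C2H2 zinc fingers, small loops in which a pair of cysteines and a pair of histidines hold a zinc ion. A large share of them, many in clusters on chromosome 19, also carry a KRAB domain, which recruits the co-repressor TRIM28 and with it the histone methyltransferase SETDB1 and HP1 proteins, and which is known for silencing transposable elements. Others work on RNA or ribosomes, and a few activate transcription.

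The coding sequence of a finger shows how far these genes differ in base composition, on which the libraries also differed. The first finger encoded in a single coding exon is given for 5 members, read 5′ to 3′ on the gene's strand from GRCh37 with GENCODE 44 lifted to that build, and capitals mark the codons of the zinc-binding cysteines and histidines. ZNF138 (chr7:64292125-64292187, plus strand), ZNF562 (chr19:9764228-9764290, minus strand) and ZNF146 (chr19:36727394-36727456, plus strand) were among the lowest in GLUP relative to Con. ZNF587 (chr19:58370060-58370122, plus strand) and ZNF358 (chr19:7584585-7584647, plus strand) were among the highest.
ZNF138: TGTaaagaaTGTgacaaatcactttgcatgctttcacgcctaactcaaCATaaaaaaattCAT
ZNF562: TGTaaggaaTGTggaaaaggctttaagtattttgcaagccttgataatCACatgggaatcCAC
ZNF146: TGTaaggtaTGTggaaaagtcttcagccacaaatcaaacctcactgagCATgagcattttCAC
ZNF587: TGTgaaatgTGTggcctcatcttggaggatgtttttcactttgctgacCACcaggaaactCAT
ZNF358: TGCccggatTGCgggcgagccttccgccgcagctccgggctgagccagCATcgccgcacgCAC
These windows of 63 bases ranged from 31.7% GC in ZNF138 through 38.1% in ZNF562, 41.3% in ZNF146 and 44.4% in ZNF587 to 74.6% in ZNF358. Over the 911 fingers read in 98 members, the median GC content was 41.3%, and the median of a single member ran from 29.0% to 69.8%.

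The proteins encoded by the canonical transcripts were searched for fingers and for a KRAB pattern. At least 1 finger was found in 102 of the 103 members that could be read, and ZNF330 was the member without one. ZNF274, ZNF518A and ZNF595 could not be read. The median was 9 fingers, and ZNF462 had the most, with 33. A KRAB pattern was found in 59 of the 103 members (57.3%), beside 311 of 503 ZNF genes of the table (61.8%). On chromosome 19 lay 50 members (47.2%), beside 246 of all ZNF genes (48.4%), so that both shares were close to those of the whole family.

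Expression of the ZNF genes was low. Their mean level ran from 1.00 to 55.9 FPKM with a median of 1.73 FPKM, 66 members were below 2 FPKM, and 6 were at 10 FPKM or more. Since the minimum was set on the mean of both groups, a gene could enter through one group: 76 members had a mean of at least 1 FPKM in both groups, 27 in Con alone and 3 in GLUP alone. ZNF84 (1.01 FPKM) and ZNF300 (1.00 FPKM) lay just inside the minimum, while ZNF345 (0.992 FPKM) and ZNF770 (0.976 FPKM) lay just outside. All members were above 0 in each library.

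The libraries did not fall into 2 clean groups. The summed FPKM of the 106 members was 469.9, 525.8 and 332.0 in Con 1 to 3, and 316.0, 320.8 and 329.4 in GLUP 1 to 3, so that Con 3 was close to the GLUP libraries and the other Con libraries were well above them. In such bulk samples, fewer cells of a type and less RNA per cell cannot be told apart. Con 2 was the highest library in 54 members (50.9%), compared with 37.6% of all tested genes and 52.6% of genes of like GC content. In 72 members Con 3 was at or below the highest GLUP value. No share over other genes stands beside this count, so it is not read as a trait of the ZNF genes. Among the members, Spearman's rho between GC content and the deviation of a library from the gene's mean was −0.08 in Con 1, −0.51 in Con 2 and 0.39 in Con 3, and 0.21, 0.36 and 0.13 in GLUP 1 to 3, a description over 106 genes that share the libraries. Con 2 was thus relatively high at AT-rich members and Con 3 at GC-rich ones, and the part of this in the differences between groups was not tested. Depth is not given by FPKM values and is unknown; the FPKM total was 909740 to 965150 per library. As a check of the label, the mesenchymal marker vimentin (VIM) was at 222.2 to 387.3 FPKM, and keratins 8, 18 and 19 together with EPCAM and CDH1 summed to 2.97 to 3.70 FPKM in Con and 5.18 to 6.06 in GLUP. The epithelial junction genes EPCAM and CDH1 stayed at or below 0.124 and 0.080 FPKM, so these defining epithelial markers were near absent. The mesenchymal markers VIM, FN1 and CDH2 summed to 336.8 to 390.5 FPKM in Con and 222.8 to 336.7 FPKM in GLUP, and the fibroblast markers COL1A1, COL1A2, DCN and PDGFRB to 25.5 to 45.4 and 19.5 to 27.6 FPKM. The sums of the epithelial and mesenchymal lists did not overlap between groups, the mesenchymal one by a narrow gap (336.79 FPKM in Con 1, 336.65 in GLUP 1). VIM, which makes up nearly all of that sum, did overlap, at 335.58 FPKM in Con 1 and 335.99 in GLUP 1. In the epithelial list the keratins were higher in GLUP, while CDH1 was at 0 in each GLUP library. The part of these markers in the results on ZNF genes was not tested. The endothelial gene CDH5 and the T cell gene CD3E were at 0, and the pan-leukocyte gene PTPRC was at or below 0.039 FPKM.

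**Figure D1:**
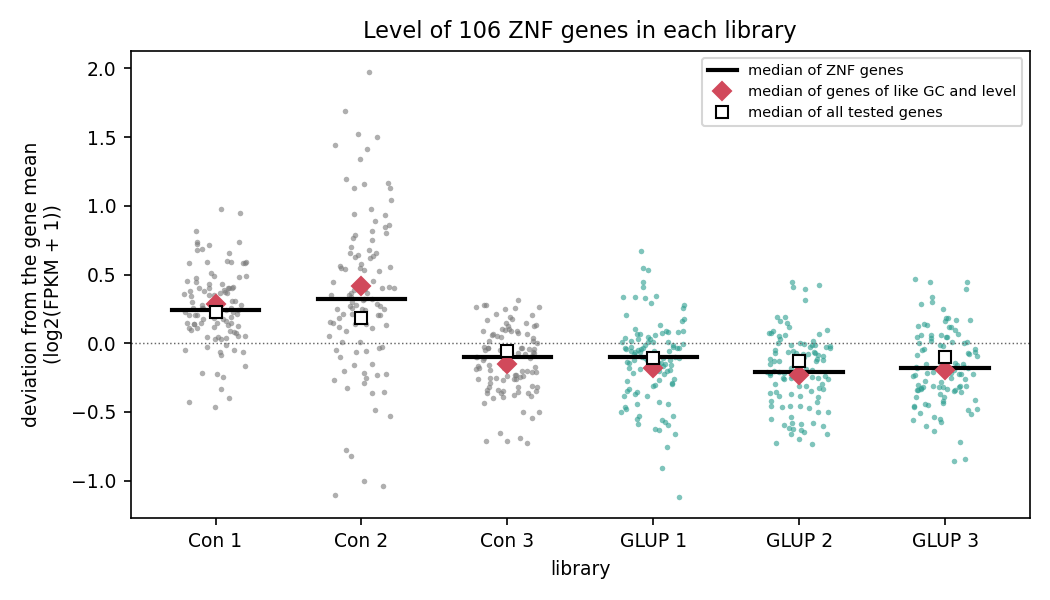
Median deviation of each library from the gene's mean over the 6 libraries, on the log2(FPKM + 1) scale, with 1 small point per ZNF gene, a bar for the median of the 106 ZNF genes, a diamond for genes of like GC content and level and a square for all tested genes. For the ZNF genes Con 1 and Con 2 sit at 0.24 and 0.32, while Con 3 (−0.10) lies among the GLUP libraries (−0.21 to −0.10).

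In GLUP, most expressed ZNF genes had a lower mean than in Con, by a small amount, and no gene passed the adjusted test. The log2 fold change, here the difference GLUP minus Con of the group means of log2(FPKM + 1), was below 0 in 90 of 106 members (84.9%), with a median of −0.33, quartiles of −0.54 and −0.12, and extremes of −1.42 and 0.62. On this scale the change of low genes is understated. Over all 7406 tested genes the median was −0.23 and 65.5% were below 0, so that zero change relative to the bulk of genes corresponds to −0.23. Below that median were 64 of the 106 members. The minimum was set on the same 6 libraries as the contrast, so the counts over members are given as description.

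The share of ZNF genes whose groups did not overlap with GLUP lower was near that of all tested genes. The share with GLUP higher was below that of all tested genes and near that of genes of like GC content and level. All 3 GLUP values were below all 3 Con values in 26 members (24.5%), where the share over all tested genes was 22.7%. The reverse held for 1 member, ZNF587 (0.943%). That share was 7.55% over all tested genes, 3.11% over genes of like GC content and 1.53% over those also of like level. With trimmed-mean (TMM) scaling of the libraries, which brings the median change of all genes to −0.01, the means of 69 members were lower in GLUP, beside 50.6% of all tested genes. Without overlap were 14 members lower, beside 14.4% of all tested genes, and 6 members higher, beside 14.3%. Of the 653 genes of like GC content and level, 28 were higher without overlap in that scaling. In limma's test 16 members were lower at an unadjusted p under 0.05 (15.1%, with 17.2% over all tested genes) and none was higher (4.46%). Of the 653 genes of like GC content and level, 2 were higher at that threshold. At an adjusted p under 0.05 (limma, Benjamini-Hochberg over all tested genes) the count was 0 for the members and 0 (0%) for all genes, and the smallest adjusted p of a member was 0.194. On the log2(FPKM + 1) scale, 3 members were more than 2-fold lower (ZNF146, ZNF557 and ZNF514), against 6.81% of all genes, and none was more than 2-fold higher (2.94%). By the ratio of mean FPKM, a measure added after the data were seen, 26 members were more than 2-fold lower (24.5%), beside 18% of all tested genes and 25.4% of those of like GC content, and none was more than 2-fold higher (3.47%). With 3 libraries against 3, an exact permutation test cannot give a two-sided p below 0.1, and that is the value for each member whose groups do not overlap.

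Without Con 3, the picture of the adjusted test changed. Then 17 members were lower at an adjusted p under 0.05 (16.0%), in a fit where 16.3% of all tested genes and 24.2% of genes of like GC content passed in that direction, and 0 members were higher (2.2% of all genes). The count of members whose GLUP values were all below the remaining Con values was 59 (55.7%) with Con 3 left out. Both Con 1 and Con 2 lay above all GLUP values in 43.1% of all tested genes and in 62.8% of those of like GC content.

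Genes of like base composition showed the same direction as the ZNF genes. GC content was taken over the canonical transcript, whose median was 42.4% for the members and 47.2% for all tested genes. Genes of like GC content are the 2543 tested genes outside the family between 38.8% and 46.6% GC, the quartiles of the members, and 653 of these also lay between the members' quartiles of level (1.33 to 2.78 FPKM). Their median log2 fold changes were −0.43 and −0.38, compared with −0.33 for the ZNF genes. Lower in GLUP were 84.5% of the genes of like GC content and 86.7% of those also of like level, against 84.9% of the ZNF genes. Groups did not overlap, with GLUP lower, in 32.1% and 27.4% of these genes, against 24.5% of the ZNF genes. Genes weighted to the members' distribution in GC bins had a median of −0.40, with 79.0% below 0. The difference between the median of the ZNF genes and that of genes of like GC content was 0.09 on the log2 scale. It was 0.18 without Con 3, and it turned to −0.22 with a minimum of 5 FPKM, where 12 members had a median of −0.72 and genes of like GC content one of −0.49.

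Split by GC content, the ZNF genes went with other genes in direction at each step. Under 40% GC, 34 of 36 members were lower (median −0.40), beside 92.1% of other genes (median −0.58) and a median of −0.46 in those of like level. Between 40% and 45% GC, 33 of 36 members were lower (median −0.38), beside 85.2% of other genes (median −0.44). Between 45% and 50% GC, 16 of 18 members were lower (median −0.33), beside 73.7% of other genes (median −0.27). At 50% GC or more, 7 of 16 members were lower and the median was 0.07, beside 38.3% and 0.15 in other genes. Of the 16 members with a higher mean in GLUP, 9 were thus in this last class, and the others, ZNF587 among them, had less than 50% GC. Under 40% GC, 4 of 36 members had groups that did not overlap with GLUP lower (11.1%), while this held for 37.5% of other genes there and 31.0% of those of like level. Between 40% and 45% GC it was 15 of 36 members (41.7%), beside 32.3% and 27.6%. These bins were compared after the values were seen, and no test of the differences was run.

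**Figure D2:**
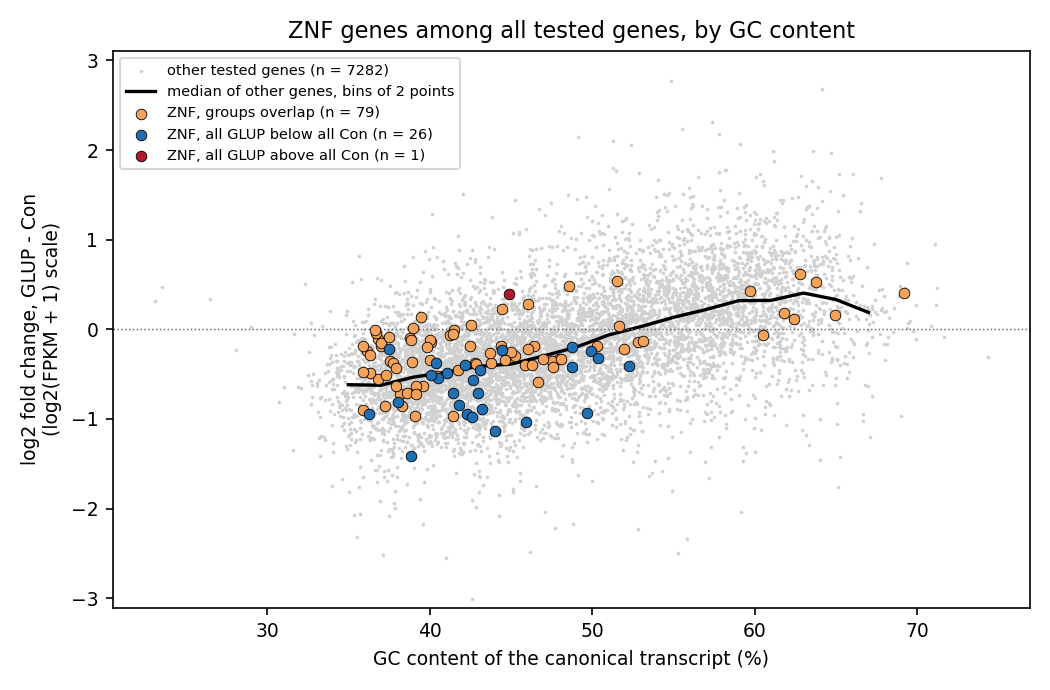
Log2 fold change (GLUP minus Con, log2(FPKM + 1) scale) against GC content of the canonical transcript in percent, with 1 point per tested gene, ZNF genes coloured by whether the groups overlap and a black line for the median of other genes. The ZNF genes follow the line from about 40% GC, where nearly all lie below 0, to the GC-rich end, where the median of the members is 0.07.

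Across the 106 members, Spearman's rho of log2 fold change with GC content was 0.33, and across 7282 other genes it was 0.55. It was also 0.33 with the GC content of the coding part and 0.32 with that of the 3′ untranslated region, and −0.20 with transcript length. With the GC content of the fingers themselves it was 0.31 over 98 members. With the number of fingers it was −0.16 over 103 members. The points of these correlations share libraries and base composition and are not independent.

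After a smooth trend with GC content and length was removed from each library, the ZNF genes as a whole no longer had a median below 0. Their median became 0.06, with 46 of 106 members lower (43.4%), beside 48.7% of all genes, and the medians of genes of like GC content and of those also of like level were 0.01 and 0.06. The removal also took out each library's general shift, so that the median of all tested genes went from −0.23 to 0.01. With TMM scaling alone, the median of the ZNF genes was −0.12. The parts of the general shift, GC content and length in the move to 0.06 were not tested. Groups then did not overlap, with GLUP lower, in 9 members (8.49%), beside 13.4% of all genes and 12.9% of those of like GC content. The 12 members of at least 5 FPKM kept a median of −0.21, with 8 of them lower (66.7%). Genes of like GC content at that level had a median of −0.06, with 55.4% lower.

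**Figure D3:**
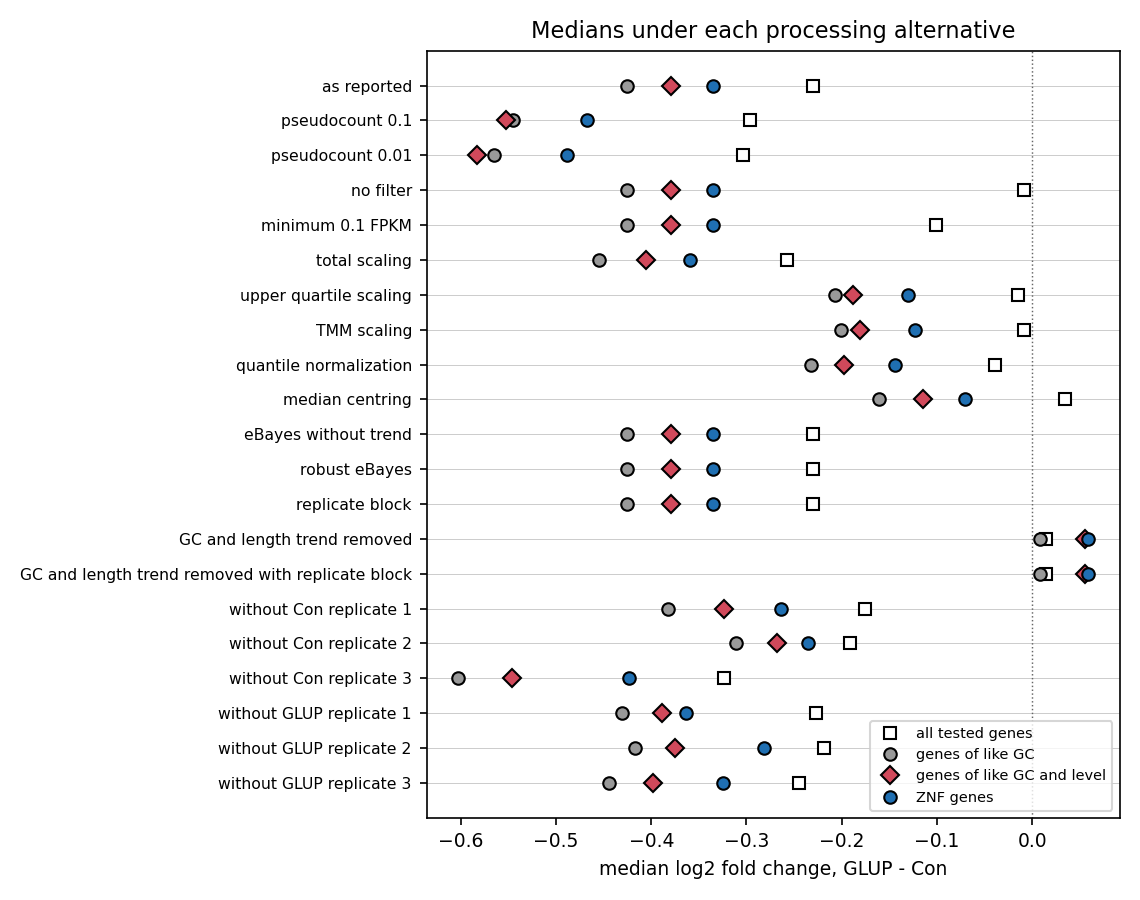
Median log2 fold change (log2 scale) of the ZNF genes, of genes of like GC content, of those also of like level and of all tested genes, under each processing alternative other than the minimum of 5 FPKM. The medians of the ZNF genes and of their comparison genes move together, from −0.33 and −0.43 as reported to 0.06 and 0.01 after removal of the GC and length trend. That removal also takes out each library's general shift.

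The member with the highest mean, ZNF593, and the third highest, ZNF622, are ribosome factors. ZNF593 (ENSG00000142684, chr1:26496399-26497364), a factor of large ribosomal subunit assembly, was at 46.1, 31.0 and 62.2 FPKM in Con and 55.0, 67.3 and 73.8 FPKM in GLUP. Its highest Con value exceeded the lowest GLUP value, so the groups overlapped. The log2 fold change was 0.53 (SE 0.34, limma adjusted p = 0.336), or 0.27 without Con 2, and the transcript had 63.8% GC. ZNF593 overlaps the expressed ZNF593OS on the other strand, and strand handling is not given, so its level is uncertain. ZNF622 (ENSG00000173545, chr5:16451628-16465909), which acts late in maturation of the large ribosomal subunit in the cytoplasm, was at 22.1, 15.3 and 20.04 FPKM in Con and 15.4, 17.7 and 18.7 FPKM in GLUP. The GLUP range lay within the Con range, with a log2 fold change of −0.13 (SE 0.29, limma adjusted p = 0.782). ZNF598, a ubiquitin ligase that senses collided ribosomes, had a mean of 0.948 ± 0.277 FPKM in Con and 1.16 ± 0.174 FPKM in GLUP (SD, n = 3 each), and its log2 fold change of 0.16 turned to −0.02 once that trend was removed.

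ZNF706 and ZNF330 are 2 members with few or no fingers. ZNF706 (ENSG00000120963), which encodes a small protein with 1 finger, was at 53.4, 32.7 and 23.3 FPKM in Con and 17.8, 26.4 and 18.4 FPKM in GLUP. Con 1 was the highest and GLUP 2 lay above Con 3, and the log2 fold change was −0.72 (SE 0.36, limma adjusted p = 0.262), or −0.41 without Con 1. ZNF330 (ENSG00000109445, chr4:142142041-142155851), a nucleolar protein, was at 12.7, 12.3 and 7.69 FPKM in Con and at 5.99, 5.99 and 6.37 FPKM in GLUP. The 3 GLUP values were close together and below every Con value, with a log2 fold change of −0.71 (SE 0.29, limma adjusted p = 0.205).

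The list of ZNF proteins known to act on RNA or in translation had 12 genes, all of them expressed. Of these, 8 were lower in GLUP, with a median of −0.12, and 3 did not overlap with GLUP lower (ZNF330, ZNF830 and ZNF106), or 25% beside 22.7% of all tested genes. With TMM scaling the median of this list was 0.16 and 5 of 12 were lower, and after removal of the GC and length trend it was 0.06. ZNF830, known from pre-mRNA splicing, was at 2.96, 2.57 and 1.94 FPKM in Con and 1.58, 1.18 and 1.29 FPKM in GLUP. Each GLUP value was below each Con value, and the log2 fold change was −0.56 (SE 0.23, limma adjusted p = 0.211). ZNF207 (BUGZ), which loads the checkpoint protein BUB3 on kinetochores, had 8.16 to 13.3 FPKM in Con and 8.52 to 10.4 FPKM in GLUP. ZNF326, part of the DBIRD complex that links transcription elongation and splicing, had 2.22 to 3.33 FPKM in Con and 2.28 to 3.04 FPKM in GLUP, and its log2 fold change rounded to 0. The groups of both genes overlapped over most of their range. ZNF638, known for bringing the HUSH silencing complex to unintegrated retroviral DNA, was at 2.97, 7.08 and 3.50 FPKM in Con and 3.32, 1.91 and 2.11 FPKM in GLUP, with a log2 fold change of −0.63 (SE 0.33, limma adjusted p = 0.270) that was −0.32 without Con 2. The remaining ones with a positive log2 fold change were ZNF346, a double-stranded RNA binding protein (0.03), and ZNF385A, an RNA-binding modulator of p53 (0.62). ZNF385A was at 1.53, 0.0231 and 1.15 FPKM in Con and 2.00, 1.94 and 1.29 FPKM in GLUP, and the very low Con 2 value lowered the Con mean: without that library the log2 fold change was 0.23. ZNF106, an RNA-binding protein, had means of 1.74 ± 0.292 FPKM in Con and 1.33 ± 0.0934 FPKM in GLUP (SD, n = 3 each). Its log2 fold change of −0.23 became −0.05 with TMM scaling and 0.17 once the GC and length trend was removed.

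The members with the largest negative log2 fold changes and no overlap of groups were led by ZNF146. ZNF146 (ENSG00000167635, chr19:36705504-36729673, 10 fingers and no KRAB pattern), a protein built almost wholly of fingers, was at 22.7, 46.8 and 11.5 FPKM in Con and 9.05, 7.94 and 7.27 FPKM in GLUP. Con 2 was far above the other libraries, and the lowest Con value was still above the highest GLUP value. The log2 fold change was −1.42 (SE 0.45, limma adjusted p = 0.194), or −1.19 relative to the median of all genes, and it ran from −1.89 without Con 3 to −0.93 without Con 2. Its transcript had 38.9% GC, and after removal of the trend with GC content and length the value was −0.86.

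The other 5 of these carry a KRAB pattern. ZNF557 (ENSG00000130544, chr19:7069714-7087979) was at 5.29, 13.9 and 4.04 FPKM in Con and 3.04, 2.83 and 1.91 FPKM in GLUP. Con 2 again stood well above the rest, and the log2 fold change was −1.13 (SE 0.40, limma adjusted p = 0.198), or −0.66 without Con 2. ZNF514 (ENSG00000144026, chr2:95787832-95831413) was at 9.35, 19.4 and 6.23 FPKM in Con and 4.34, 4.14 and 5.50 FPKM in GLUP, with a log2 fold change of −1.03 (SE 0.38, limma adjusted p = 0.198) that was −0.62 without Con 2. Of its 50-base windows 27.2% also occur elsewhere among transcripts, and it overlaps ZNF2 on the other strand, so its level is uncertain. ZNF562 (ENSG00000171466, chr19:9752483-9785776) was at 4.22, 2.21 and 2.25 FPKM in Con and 0.873, 0.761 and 1.17 FPKM in GLUP. Here Con 1 was the highest library, not Con 2, and Con 2 and Con 3 were alike. The log2 fold change was −0.98 (SE 0.26, limma adjusted p = 0.194). ZNF562 overlaps the expressed ZNF561-AS1 on the other strand, so its level is uncertain. ZNF138 (ENSG00000197008, chr7:64254766-64294059) was at 2.23, 3.27 and 1.59 FPKM in Con and 1.06, 0.584 and 0.522 FPKM in GLUP. All Con values exceeded all GLUP values, with a log2 fold change of −0.95 (SE 0.26, limma adjusted p = 0.194) that became −0.31 after removal of the trend, for a transcript of 36.3% GC. ZNF547 (ENSG00000152433, chr19:57874845-57890933) was at 2.34, 7.19 and 1.86 FPKM in Con and 1.45, 0.951 and 1.28 FPKM in GLUP, with a log2 fold change of −0.95 (SE 0.38, limma adjusted p = 0.203) that was −0.48 without Con 2. It overlaps TRAPPC2B on the same strand, and reads of these genes may be split between them. Of the windows of ZNF547, 10.0% also occur elsewhere among transcripts.

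**Figure D4:**
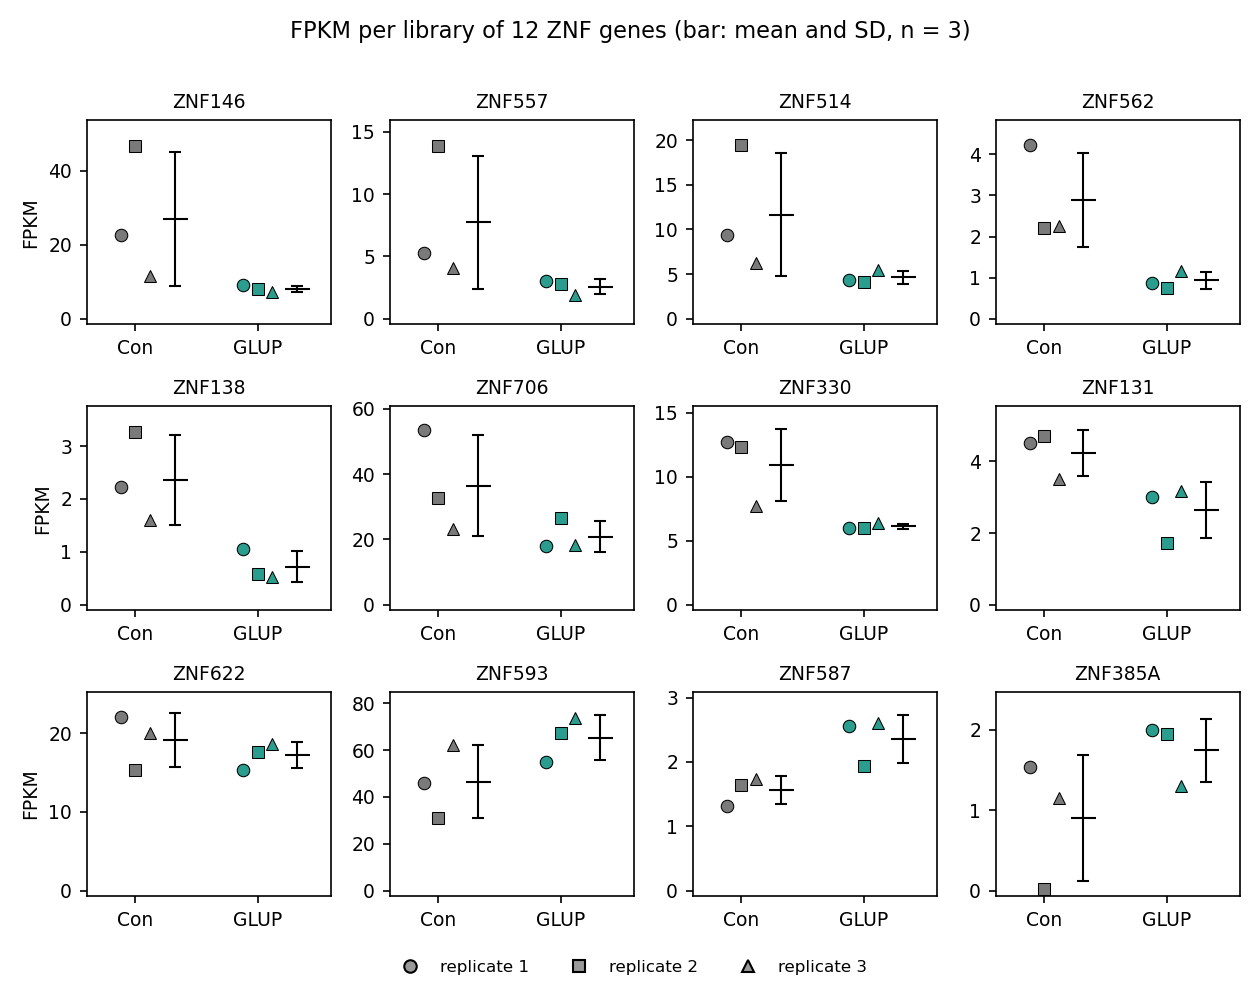
FPKM of selected ZNF genes in each library (points, 3 Con and 3 GLUP per gene) with the group mean and SD (bars), each panel on its own linear axis. ZNF146 lies between 11.5 and 46.8 FPKM in Con and between 7.27 and 9.05 in GLUP, and ZNF587 is the member with all GLUP values above all Con values.

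ZNF587 (ENSG00000198466, chr19:58361227-58376485), a KRAB gene, was the member whose groups did not overlap in the other direction. It was at 1.32, 1.64 and 1.74 FPKM in Con and 2.55, 1.93 and 2.60 FPKM in GLUP. Every GLUP value was above every Con value, and the log2 fold change was 0.39 (SE 0.23, limma adjusted p = 0.311). Of its 50-base windows 24.6% also occur elsewhere, with ZNF417 as the main partner, so that reads may be exchanged between these copies. The other named members with positive log2 fold changes had overlapping groups: ZNF576 was at 0.507 to 3.64 FPKM in Con and 1.88 to 3.30 FPKM in GLUP (0.54), ZNF32 at 2.09 to 6.03 and 4.73 to 6.19 FPKM (0.48), and ZNF358 at 0.554 to 1.48 and 1.14 to 1.85 FPKM (0.40). In all of these the spread of Con covered much of the GLUP range, and without Con 2 the values of ZNF576 and ZNF32 were 0.15 and 0.19. Of the 50-base windows of ZNF358, 14.4% also occur elsewhere among transcripts. ZNF595 (ENSG00000272602), among the 6 highest members, was at 12.8 to 18.4 FPKM in Con and 16.0 to 17.0 FPKM in GLUP, but 54.7% of its windows are shared.

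ZNF585A (ENSG00000196967, chr19:37597636-37663643), a KRAB gene with 21 fingers, was at 21.9, 42.9 and 8.75 FPKM in Con and 9.97, 9.83 and 9.94 FPKM in GLUP. Con 1 and Con 2 were above and Con 3 below all GLUP libraries, while the GLUP values were nearly equal. The log2 fold change was −0.97 (SE 0.48, limma adjusted p = 0.255), with −1.54 without Con 3 and −0.45 without Con 2. Of its 50-base windows 16.1% also occur elsewhere, with ZNF585B as the main partner, so its level is uncertain.

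KRAB genes and members without KRAB were both mostly lower in GLUP. Of the 59 KRAB members 54 were lower in GLUP, with a median of −0.37, and of the 44 without the pattern 34 were lower, with a median of −0.26. Their median GC contents were 41.5% and 44.5%. Below 45% GC, 42 of 46 KRAB members were lower (median −0.38) and 24 of 24 without KRAB were lower (median −0.41). Groups did not overlap, with GLUP lower, in 12 and 7 of these (26.1% and 29.2%), beside 22.7% of all tested genes and 32.1% of genes of like GC content. By number of fingers, the medians were −0.29 for up to 5 fingers (29 members), −0.34 for 6 to 10 (37 members) and −0.35 for 11 or more (37 members). On chromosome 19 the median was −0.35, with 42 of 50 lower, and elsewhere it was −0.26, with 48 of 56 lower. With the GC and length trend removed, the medians of all these subsets lay between 0.02 and 0.11. Of the 26 listed ZNF genes with a SCAN domain, which pairs such proteins with each other, 6 were expressed, and all 6 were lower (median −0.31), 4 of them with no overlap, beside 22.7% of all tested genes. With TMM scaling 5 were lower and 1 had no overlap, and after removal of the GC and length trend 3 were lower and the median was −0.04.

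The co-repressors on which KRAB proteins act did not go in one direction. Of 25 genes listed, 17 were expressed at the minimum, 11 of them lower in GLUP, with a median of −0.08. Groups did not overlap, with GLUP lower, in 3 (CBX5, CHAF1B and TASOR), or 17.6% beside 22.7% of all tested genes. With TMM scaling the median was 0.15, 7 of 17 were lower, and 1 had no overlap with GLUP lower, beside 14.4% of all tested genes. TRIM28, the direct partner of the KRAB domain, was at 3.24, 2.41 and 6.53 FPKM in Con and 10.1, 5.18 and 4.74 FPKM in GLUP. Con 3 was above 2 of the GLUP libraries, and the log2 fold change was 0.62 (SE 0.38, limma adjusted p = 0.325). SETDB1, which methylates histone H3 at the silenced sites, was at 1.66, 2.41 and 0.914 FPKM in Con and 1.23, 1.08 and 2.01 FPKM in GLUP, with a log2 fold change of −0.10 (SE 0.28, limma adjusted p = 0.825). Base composition differed here too, with 64.2% GC in TRIM28, 50.8% in SETDB1 and 39.0% in TASOR.

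Among activators and architectural factors, 4 of 10 listed ZNF genes were expressed: ZNF131, ZNF281, ZNF410 and ZNF32. ZNF410, known as a dedicated activator of CHD4, was at 9.77, 6.27 and 6.37 FPKM in Con and 6.61, 5.49 and 5.47 FPKM in GLUP. The groups overlapped, with a log2 fold change of −0.28 (SE 0.28, limma adjusted p = 0.529), and 84.8% of its windows are shared with another gene model of the annotation. CHD4 itself was at 9.77, 6.69 and 9.91 FPKM in Con and 9.44, 13.6 and 9.15 FPKM in GLUP, also overlapping (log2 fold change 0.26). ZNF281, a regulator of stemness and of epithelial-mesenchymal transition, was at 0.732 to 2.51 FPKM in Con and 0.667 to 0.846 FPKM in GLUP (log2 fold change −0.45, and −0.17 without Con 2).

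ZNF genes that the study names as candidate partners of TEAD4 were listed separately. Of 10 such genes 4 were expressed, all lower in GLUP, with a median of −0.26. The median of all tested genes was −0.23, with 65.5% lower, and 84.5% of genes of like GC content were lower. Groups did not overlap, with GLUP lower, in 2 of the 4, beside 22.7% of all tested genes. With TMM scaling 3 of the 4 were lower (median −0.07), and after removal of the GC and length trend 1 of 4 was lower and the median was 0.32, so that the direction turned. ZNF131, a BTB-domain transcription factor, was at 4.50, 4.70 and 3.50 FPKM in Con and 3.01, 1.73 and 3.17 FPKM in GLUP, with no overlap and a log2 fold change of −0.54 (SE 0.28, limma adjusted p = 0.263). The gene lies across the expressed ANXA2R-OT1 on the other strand, so its level is uncertain. ZNF24, a SCAN protein known as a repressor of VEGF transcription, was at 1.43, 1.21 and 0.985 FPKM in Con and 0.953, 0.755 and 0.950 FPKM in GLUP, with no overlap and a log2 fold change of −0.22 (SE 0.20, limma adjusted p = 0.491). The gap between the groups of ZNF24 was small, and its log2 fold change was close to the median of all genes. ZNF429 (−0.29) and ZNF655 (−0.12) had overlapping groups. ZNF800, which the study lists as a screen hit, was below the minimum.

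Promoter windows were searched for the core of the TEAD binding motif, written GGAATG and on the other strand CATTCC, since GLUP acts on TEAD4. The windows are RefSeq promoters of build GRCh38.p14, 300 bases long and reaching 50 bases past the start site, and 91 members matched by symbol. The motif was found in 16 of these (17.6%), beside 16.7% of 27305 genes, and in 6 of the 25 matched members whose groups did not overlap with GLUP lower. ZNF330 and ZNF106 had 2 matches each. The 250 bases before the start of ZNF330 are shown because they hold both of its matches (chr4:141220645-141220894, GRCh38.p14, plus strand), in capitals.
ZNF330: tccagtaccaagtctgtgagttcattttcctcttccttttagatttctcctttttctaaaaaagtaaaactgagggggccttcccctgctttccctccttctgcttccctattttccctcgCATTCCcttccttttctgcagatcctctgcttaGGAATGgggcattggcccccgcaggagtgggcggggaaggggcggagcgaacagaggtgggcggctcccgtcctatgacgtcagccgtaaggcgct
A match describes these letters and not a bound site.

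Sequence similarity within the family limits single values. Of the 106 members, 18 share at least 10% of their 50-base windows with other transcripts, 18 overlap another expressed gene, and 31 do at least one. Among the 75 members with neither, 65 were lower in GLUP (86.7%) with a median of −0.32. The share lower was 65.5% over all tested genes and 84.5% over genes of like GC content. In 19 of the 75 the groups did not overlap with GLUP lower (25.3%), beside 22.7% and 32.1%. These members went in the same direction as all members, and the part of shared sequence was not tested. The spread was larger in Con than in GLUP in 85 of 106 members: the median SD on the log2(FPKM + 1) scale was 0.37 in Con and 0.19 in GLUP, compared with 0.43 and 0.20 over all tested genes.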

How the data were processed

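RNA of HGC-27 cells was measured in 3 Con and 3 GLUP libraries, grouped by their labels. The authors deposited 1 table of FPKM values per gene; the submitters' processing notes list HISAT2, Cufflinks and RSEM without versions or roles, and GRCh38.p10 as the build. The row identifiers carry the suffix of a GENCODE annotation lifted to GRCh37, so coordinates, lengths and GC content were taken from GENCODE 44 on GRCh37. FPKM is relative to each library's total and holds no read counts, so depth is unknown and no count test was run. Strand handling is not given in the sources used here. Of 62492 rows, 49 pseudoautosomal rows were summed with their counterparts, and 62162 genes were named by a symbol table.

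All genes averaging 1 FPKM or more were fitted on log2(FPKM + 1) with limma 3.58.1 (R 4.3.3; lmFit, eBayes with trend, two-sided, no covariates), with Benjamini-Hochberg adjustment over all of them. Standard errors are limma's. The fit was tested on simulated data. Fingers and KRAB patterns were searched in translated canonical transcripts. The members, lists and comparisons were chosen with earlier results of these data known, and the TEAD4 partner list comes from the study. Named genes were the 6 highest members, the 6 largest falls and rises with groups that did not overlap (completed by smallest p), the expressed members of the functional lists, those next to the minimum, TRIM28 and SETDB1; ZNF274, ZNF518A, ZNF462, CBX5, CHAF1B, TASOR and CHD4 were named after their values were seen. Other pseudocounts, minimums, scalings, moderation, a replicate block, removal of a loess trend (span 0.5) with GC content and length, and leaving out each library were tried.

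The labels do not say whether same-numbered Con and GLUP libraries were paired. Their deviations from the group means correlated at 0.13, −0.01 and −0.17, which cannot show how the cultures were set up.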

Additional observations from a re-analysis of the deposited data

How the results depend on the processing

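As reported, 26 members had groups that did not overlap with GLUP lower, none had an adjusted p under 0.05, the median log2 fold change was −0.33 and its difference to genes of like GC content was 0.09. The 26 became 4 with a minimum of 5 FPKM, where 12 members were left, 14 with upper quartile scaling, TMM scaling and quantile normalization, 13 with median centring, and 9 after the trend with GC content and length was removed, with or without the replicate block. Beside these, the share over all tested genes in the same settings was 25.5% (members 33.3%), 14.6%, 14.4% and 16.1% (members 13.2%), 13.2% (members 12.3%) and 13.4% (members 8.49%). The count more than 2-fold lower was 3, and 26 by the ratio of mean FPKM, a measure chosen after seeing the data. The median was −0.72 with a minimum of 5 FPKM and 0.0589 after removal of the trend, with or without the block. The difference to genes of like GC content was −0.22 with a minimum of 5 FPKM. The replicate block on its own left 0 and 26 members and the medians as they were. Leaving out 1 library gave 0 to 17 members with an adjusted p under 0.05, 29 to 59 members without overlap (27.4% to 55.7%, beside 24.1% to 43.1% of all tested genes, as 2 libraries against 3 separate more often), medians of −0.42 to −0.24 and differences of 0.0677 to 0.18; the 17, the 59 and the 0.18 came without Con replicate 3. Of the 32 named members, 20 kept their sign under every alternative that tested them and 12 turned under at least 1. An adjusted p under 0.05 in limma was reached by 8 of them, only without Con replicate 3 and all lower. In that fit 16.3% of all tested genes and 24.2% of genes of like GC content passed as lower. Some of the 32 were named for large falls in these data, which raises the count. The causes were not tested.

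The depth of the libraries is unknown, and 66 members were below 2 FPKM, where the pseudocount pulls differences towards 0. With 3 libraries a group, the spread between Con libraries limits every comparison.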

Other observations

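Some zinc finger genes lie outside the ZNF symbols. Of 13 expressed ZFP, ZBTB, ZSCAN and ZKSCAN genes, 8 were lower in GLUP, with a median of −0.23 and a range of −1.18 to 1.07, and 3 did not overlap with GLUP lower. These shares (61.5% and 23.1%) were near those of all tested genes (65.5% and 22.7%), and the median GC content was 46.1%. Of the 7 ZSCAN genes, 5 were lower, with a median of −0.56. Of 33 expressed genes outside the ZNF symbols with at least 3 C2H2 patterns, 21 were lower (63.6%), beside 65.5% of all tested genes. Genes of the families above were not left out of these 33.

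ZNF274 is known to bring SETDB1 to the 3′ ends of other ZNF genes. It was at 1.53, 1.31 and 1.58 FPKM in Con, above each GLUP value, with a log2 fold change of −0.41 (SE 0.20, limma adjusted p = 0.257), and its transcript had 52.3% GC, among the members of 50% GC or more of which 9 of 16 were higher. ZNF644, a partner of the histone methyltransferases G9a and GLP, had a log2 fold change of −0.90 (SE 0.37, limma adjusted p = 0.205) with overlapping groups. Both were picked after their values were seen.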
